A study of Homo sapiens with 9 samples.

Results

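The genes described here are 50 of the 60671 genes listed in the count files: 31 targets and partners of the stress transcription factor ATF4, and 19 of the genes that encode cytosolic tRNA synthetases. They were chosen by symbol, as a named group, with results of the same 9 libraries already known, and every symbol matched 1 gene identifier. The values below therefore describe the group and carry no independent test of it. RNA with poly-A tails was sequenced from N/TERT, an established human keratinocyte line made immortal by telomerase. The KO cells carry a CRISPR knockout of SGPL1, the OE cells overexpress SGPL1, and the control cells are unedited N/TERT cells labelled wild type, with 3 libraries in each group and no treatment in any. SGPL1 encodes sphingosine-1-phosphate lyase, which degrades the signalling lipid sphingosine-1-phosphate. The sources used here give neither the number of edited clones behind the libraries nor the promoter that drives the added SGPL1.

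ATF4 is the main effector of the integrated stress response. Kinases that sense amino acid shortage, unfolded protein, haem shortage or double-stranded RNA phosphorylate the translation factor eIF2, which lowers protein synthesis in general while favouring translation of ATF4 mRNA. ATF4 then pairs with C/EBP proteins on composite DNA elements and induces genes for amino acid synthesis, amino acid transport and tRNA charging, together with DDIT3, TRIB3 and other factors that feed back on the response. Because ATF4 is controlled largely at translation, its mRNA level need not follow its activity. Cytosolic tRNA synthetases load each tRNA with its amino acid, and some of them are held together in a multi-synthetase complex, whereas a separate set of nuclear genes serves the mitochondria.

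Total counts per library were 6317564 to 9410555 in KO, 8773822 to 13330479 in OE and 8730711 to 9251703 in control, so that 3 counts corresponded to 0.225 to 0.475 CPM, the count of a gene scaled to a common library size. SGPL1 averaged 59.4 CPM in KO, 1053.1 CPM in OE and 92.3 CPM in control, with KO lowest and OE highest in every library; a count over the gene does not show the edit itself. Summed keratinocyte markers (8 of 8 detected, among them KRT5 and KRT14) were at 13735.5 to 15436.3 CPM in KO, 22968.8 to 24226.1 CPM in OE and 22749.4 to 22950.1 CPM in control. Single markers went both ways, by the test described below. Against control, 6 were lower and 1 (TP63) higher in KO, beside 25.9% and 26% of all genes. With the trend of length and GC content removed, 4 were lower and 2 higher, beside 22.4% and 22.8%. In OE 4 were higher and 1 (KRT15) lower, beside 9.28% and 9.34%. Summed fibroblast markers reached 8.1 to 15.1 CPM in KO, 24.4 to 28.4 in OE and 21.5 to 28.3 in control, with 2 of 6 at 0 throughout. Nearly all of this was COL1A1, with means of 11.1 CPM in KO, 25.9 in OE and 25.6 in control. Melanocyte markers stayed between 1.46 and 2.98 CPM in all libraries (3 of 5 at 0). Endothelial and immune markers lay at 5.93 to 9.11 CPM in KO, 1.55 to 2.18 in OE and 3.68 to 6.21 in control (3 of 6 at 0). Most of this was CD14, with means of 6.6 CPM in KO, 1.33 in OE and 3.49 in control. CDH5 had 0.802, 0 and 0.253 CPM, and VWF, lower in KO than in control, had 0.417, 0.452 and 1.12. In bulk RNA, fewer cells of a type cannot be told apart from less RNA per cell, and the part of these markers in the results was not tested. Fold changes of KO over control also ran with exon length: the decile of genes with the shortest exons (median 1178 bases) stood at a median of 0.52 on the log2 scale and the decile with the longest (13563 bases) at -0.45, against -0.03 and -0.06 for OE over control. KO over OE ran with length as well, at 0.53 and -0.4. KO results are therefore also given, in most cases, with this trend of length and GC content removed. ATF4 targets had a median exon length of 4289 bases and cytosolic synthetases one of 6356 bases, beside 5038.5 bases for all genes tested.

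In OE cells most of the group was higher than in control, whereas KO cells differed from control in both directions. All 50 genes passed the filter on low counts. A gene is called changed below with an adjusted p under 0.05 by the quasi-likelihood test of edgeR, with Benjamini-Hochberg adjustment across the 13390 genes tested, log2 fold changes carry their standard error (± SE), and means carry the SD over 3 libraries. In OE against control, 29 of the 50 were higher, beside 9.28% of all genes tested, and 2 (DDIT3 and SESN2) were lower, beside 9.34%. With the length and GC trend removed, 31 were higher (background 10.1%) and 3 lower (11.2%). The median log2 fold change of OE over control was 0.86 for the ATF4 targets, 0.36 for the cytosolic synthetases and -0.01 for all genes.

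In KO against control, 16 of the 50 were higher, beside 26% of all genes tested, and 13 were lower, beside 25.9%, so that both shares lay near the background. With the trend removed the counts were 18 higher (background 22.8%) and 10 lower (22.4%). Of the calls, 12 higher and 7 lower were made both ways, and YARS1 was called in opposite directions. The median was 0.16 for the ATF4 targets and -0.07 for the synthetases (0.18 and -0.03 with the trend removed), and -0.00 for all genes. The synthetase median was -0.13 without KO replicate 1, -0.04 without control replicate 1 and -0.11 without control replicate 3, and that of the ATF4 targets was 0.29 without control replicate 3. In KO against OE, 7 were higher, beside 28.6% of all genes, and 29 lower, beside 29%. With the trend removed these were 7 (background 27.1%) and 28 (26%). Since KO and OE were each set against the same 3 control libraries, the 2 comparisons are not independent.

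**Figure D1:**
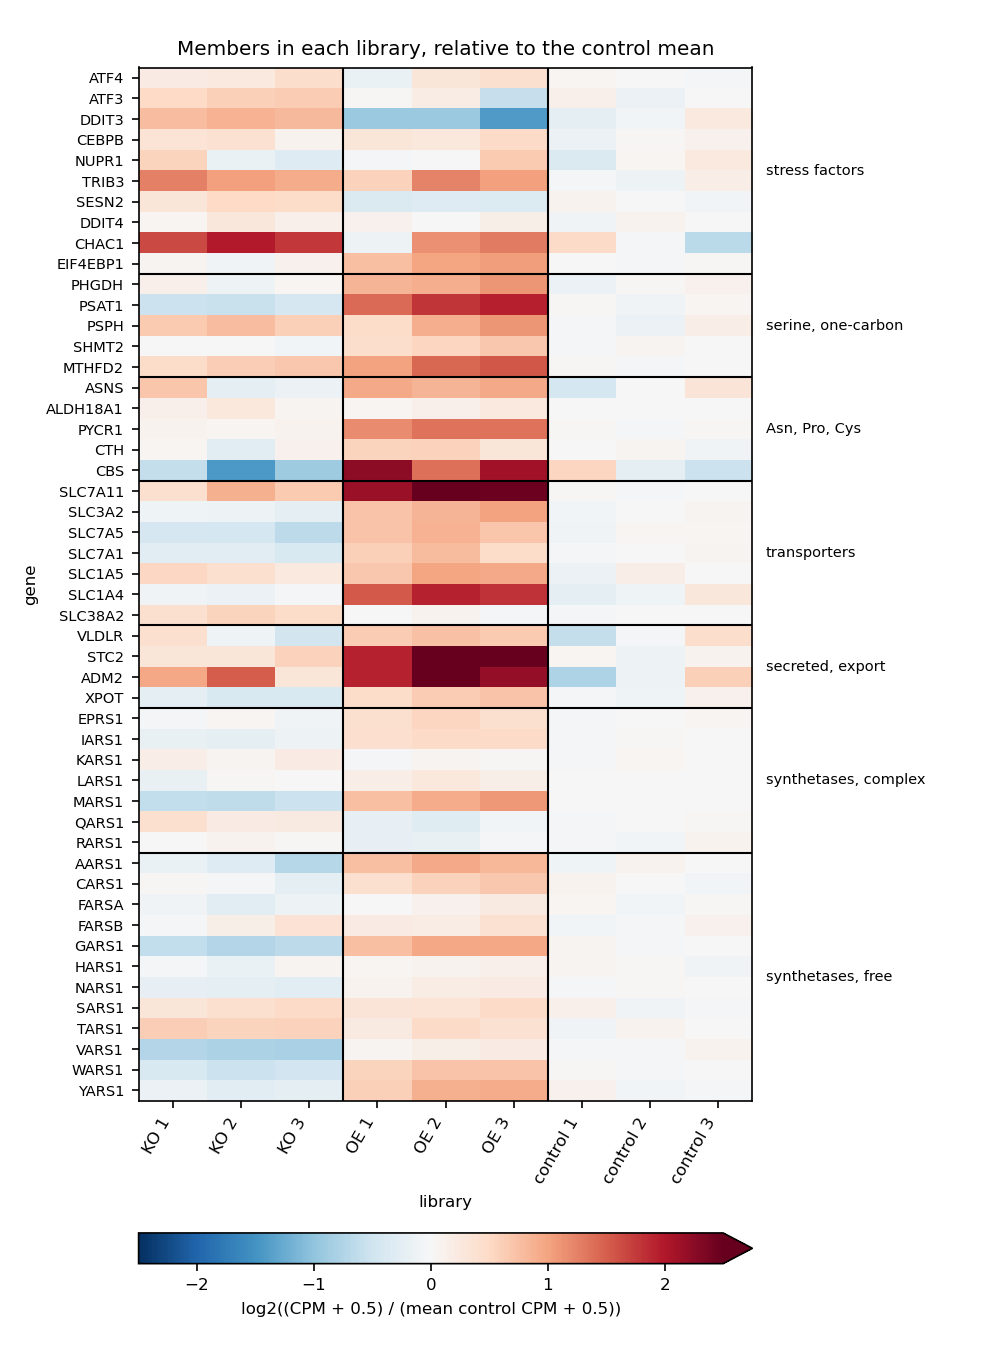
Level of each of the 50 genes (down the page, by role) in each of the 9 libraries (across), as log2 of CPM plus 0.5 over the control mean plus 0.5. Red is above and blue below the control mean, and values over 2.5 take the end colour. PSAT1, SLC7A11, SLC1A4, STC2 and ADM2 are red in the 3 OE libraries, and DDIT3 is red in KO and blue in OE.

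A C/EBP-ATF composite element, the DNA site that ATF4 binds with a C/EBP partner, was sought as the letters TGATGNAA on both strands of the RefSeq promoter windows (GRCh38.p14), which run from 250 bases before to 50 bases after the annotated start. Of 41 members with a window, 14 held a match (34.1%), beside 1270 of 35116 windows of all genes (3.62%) and 269 of the 10143 tested genes with a window (2.65%). The matches are shown because the promoters of this group are known for the element. They fell at 7 of 25 ATF4 targets (28%) and 7 of 16 cytosolic synthetases (43.8%). Of the mitochondrial synthetases, which are not among the 50, 1 of 14 held a match (7.14%). The 5 shown here belong to synthetases and to the glutathione-degrading enzyme CHAC1, each 5′ to 3′ on the gene's strand, with the match in capitals and 11 bases on either side.
CHAC1: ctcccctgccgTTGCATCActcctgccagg
AARS1: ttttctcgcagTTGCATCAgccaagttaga
MARS1: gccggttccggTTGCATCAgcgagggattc
TARS1: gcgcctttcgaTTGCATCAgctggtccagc
GARS1: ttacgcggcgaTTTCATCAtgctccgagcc
They lie at chr15:40953251-40953280 (plus strand), chr16:70289675-70289704 (minus), chr12:57488053-57488082 (plus), chr5:33440956-33440985 (plus) and chr7:30594834-30594863 (plus). The match begins at base -209, -187, -4, 3 and -33 from the RefSeq start, in the order shown. In all 5 it reads on the strand opposite to the gene. MARS1, TARS1 and GARS1 held it within 40 bases of the start, and CHAC1 and AARS1 further upstream.

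The other matches lay in ATF3, ASNS, CARS1, IARS1, NARS1, SLC1A4, SLC1A5, SLC3A2 and SLC7A1, of which the asparagine synthetase gene and 3 transporter genes are shown because their levels are described below.
ASNS: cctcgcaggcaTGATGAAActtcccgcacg
SLC1A4: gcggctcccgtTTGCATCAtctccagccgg
SLC1A5: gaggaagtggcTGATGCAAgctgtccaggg
SLC7A1: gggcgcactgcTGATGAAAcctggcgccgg
They lie at chr7:97872458-97872487 (minus strand), chr2:64989381-64989410 (plus), chr19:46784893-46784922 (minus) and chr13:29595663-29595692 (minus). A match is a description of letters and not a bound site, and the window leaves out enhancers and introns. YARS1, EIF4EBP1, LARS1, SLC7A11, VARS1, PYCR1, PSPH, NUPR1 and SHMT2 had no window.

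Among the stress factors, DDIT3 and SESN2 were called higher in KO and lower in OE than in control. The KO call of DDIT3 and the OE calls of both did not hold in some alternative fits, given below. CHAC1 and TRIB3 rose most in KO cells, and TRIB3 rose in OE cells too. Of the 10 stress factors and feedback genes, 7 were higher and 0 lower in KO against control, beside 26% and 25.9% of all genes. With the trend removed these were 3 and 1, beside 22.8% and 22.4%. In OE against control 3 were higher and 2 lower, beside 9.28% and 9.34%. In KO against OE 4 were higher and 1 lower, beside 28.6% and 29%.

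ATF4 itself (ENSG00000128272; GRCh38 chromosome 22, 39519672 to 39522683, plus strand) had 224, 231 and 262 CPM in KO, 172, 240 and 255 in OE and 202, 192 and 188 in control. The 3 KO libraries lay above every control library, while the OE libraries lay on both sides of them, OE replicate 1 lowest of all 9. Against control the log2 fold change was 0.30 ± 0.11 in KO (adjusted p = 0.0223) and 0.20 ± 0.11 in OE (adjusted p = 0.207). The KO call did not hold with the trend removed (0.17, adjusted p = 0.146), nor without KO replicate 3 (0.107), control replicate 2 (0.068) or control replicate 3 (0.0827), and the OE value passed without OE replicate 1 (0.35, adjusted p = 0.00594).

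DDIT3 (CHOP), the factor that turns prolonged stress towards cell death, lies on chromosome 12, 57516588 to 57521737, minus strand. It had 5.05, 5.48 and 5.23 CPM in KO, 1.22, 1.21 and 0.728 in OE and 2.29, 2.63 and 3.36 in control. None of the 3 groups overlapped, with KO highest and OE lowest. The log2 fold change was 0.93 ± 0.35 in KO against control (adjusted p = 0.028), -1.41 ± 0.40 in OE against control (0.0137) and 2.34 ± 0.38 in KO against OE (1.50e-05). With the trend removed the first was 0.33 (0.489), the second -1.41 (0.0149) and the third 1.74 (6.31e-04). The KO call against control was lost without any of control replicates 1 and 2 and KO replicates 1, 2 and 3 (adjusted p 0.0528 to 0.0924), and the OE call without control replicate 3 (0.0694) or OE replicate 3 (0.0702). The counts over a group were 122 in KO, 33 in OE and 76 in control, and DDIT3 shares 355 exon bases with MARS1 on the opposite strand, whose reads cannot be assigned by counting without strand.

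CHAC1, which breaks down glutathione, is on chromosome 15, 40952962 to 40956512, plus strand, and held a match to the composite element, shown above. Its levels were 6.50, 8.28 and 7.09 CPM in KO, 1.55, 4.43 and 4.95 in OE and 2.61, 1.68 and 0.897 in control. All KO libraries were above all others, and OE replicate 1 lay within the control range while the other OE libraries lay above it. CHAC1 was 4.18-fold higher in KO than in control (2.06 ± 0.40, adjusted p = 1.38e-04, or 1.89 with the trend removed). Its counts over a group were few, at 170 in KO, 126 in OE and 48 in control. OE against control gave 1.09 ± 0.41 (0.0654), which passed without OE replicate 1 (1.43, 0.00837), without control replicate 1 (1.51, 0.0379) and with no filter on low counts (1.11, 0.0193). KO exceeded OE by 0.97 ± 0.36 (0.0239), a call lost without KO replicate 2 (0.0909) or OE replicate 1 (0.63, adjusted p = 0.12).

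TRIB3, a pseudokinase that damps ATF4 signalling, had 39.0, 33.4 and 31.2 CPM in KO, 24.4, 38.9 and 33.5 in OE and 15.6, 14.7 and 18.1 in control. Every KO and OE library was above every control library, and KO and OE overlapped. It rose by 1.10 ± 0.16 in KO (adjusted p = 3.75e-06; 1.11 with the trend removed) and 1.01 ± 0.16 in OE (5.69e-05), and KO and OE differed by 0.10 ± 0.15 (0.599). SESN2, a sestrin that restrains the growth kinase mTORC1 when leucine is short, had 36.5, 41.6 and 40.2 CPM in KO, 22.6, 23.4 and 22.9 in OE and 31.2, 28.9 and 27.8 in control. Its 3 groups did not overlap. SESN2 was higher in KO than in control (0.43 ± 0.12, 0.00376; 0.48 with the trend removed) and than in OE (0.78 ± 0.12, 5.68e-06; 0.88). The lower level in OE than in control (-0.35 ± 0.12, 0.0415) was lost when any 1 of 7 libraries was left out (0.0543 to 0.153), by DESeq2 (0.0551), with no filter on low counts (0.129) and in a fit of OE and control alone (0.055).

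ATF3, a repressor of the same family that stress induces, had 10.8, 11.6 and 12 CPM in KO, 7.73, 8.65 and 4.88 in OE and 8.28, 6.73 and 7.63 in control. KO was above both other groups, which overlapped. KO exceeded OE by 0.71 ± 0.22 (adjusted p = 0.00938), or by 0.55 with the trend removed (0.04), a call lost without OE replicate 3 (0.0777). ATF3 was called higher in KO than in control (0.60 ± 0.23, adjusted p = 0.028), but not with the trend removed (0.43, 0.124), not by DESeq2 (0.0535) and not without control replicate 2 (0.101) or 3 (0.0614) or KO replicate 2 (0.0654) or 3 (0.0623). CEBPB, a binding partner of ATF4, had 110, 114 and 92.2 CPM in KO, 108, 105 and 121 in OE and 78.6, 89.1 and 93.4 in control. OE lay above control, and KO replicate 3 fell within the control range. CEBPB was called higher in KO (0.28 ± 0.10, 0.0197) and OE (0.36 ± 0.10, 0.0111). The KO call was lost with the trend removed (0.13, 0.248) and without KO replicate 1 (0.0761), KO replicate 2 (0.107) or control replicate 1 (0.119), and the OE call without control replicate 1 (0.0856).

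EIF4EBP1, a repressor of translation initiation, stood apart from the other stress genes with 74.8, 67.3 and 77.1 CPM in KO, 120, 141 and 147 in OE and 72.2, 68.9 and 72.8 in control. OE was above both other groups, and KO and control overlapped. It rose in OE (0.93 ± 0.09, adjusted p = 1.41e-07) and had 0.03 ± 0.10 in KO (0.794), which became -0.39 and was called lower with the trend removed (9.77e-04). EIF4EBP1 has 880 exon bases, among the shortest of the group. DDIT4, another inhibitor of mTORC1, and NUPR1, a small stress-induced nuclear protein, passed in none of the 3 comparisons. DDIT4 ranged from 297 to 384 CPM over the 9 libraries and NUPR1 from 1.31 to 3.13 CPM.

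**Figure D2:**
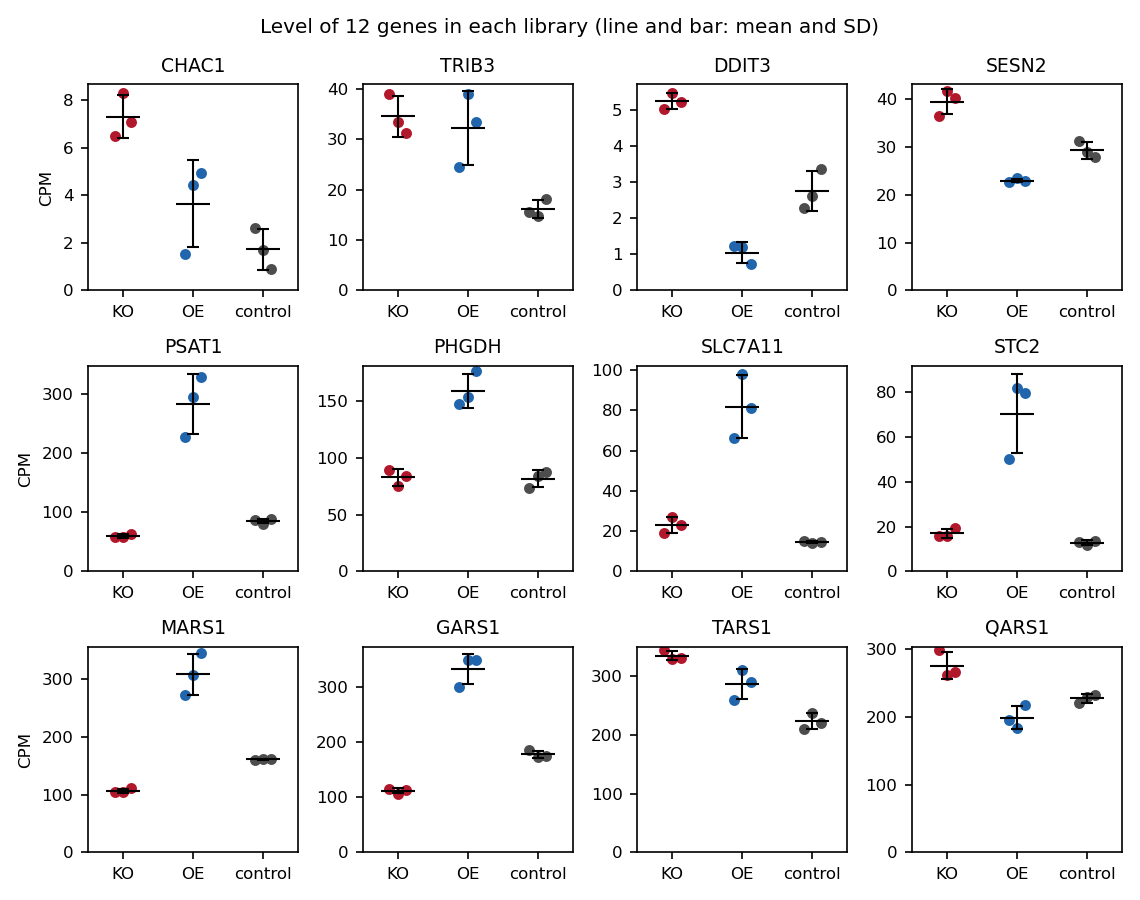
CPM of 12 of the genes in each library, KO, OE and control from left to right in each panel; dots are libraries, and the line and bar are the mean and SD of 3. The KO dots of CHAC1, DDIT3 and SESN2 lie above the other groups, and the OE dots of PSAT1, PHGDH, SLC7A11, STC2, MARS1 and GARS1 lie above the other groups.

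All 5 genes of serine and one-carbon synthesis rose in OE cells, by 0.56 to 1.73 on the log2 scale, and PSAT1 fell in KO cells. Of all genes tested, 9.28% were called higher in OE. Against control, KO gave 2 higher and 1 lower, beside 26% and 25.9% (3 and 1 with the trend removed, beside 22.8% and 22.4%). KO against OE gave 0 higher and 4 lower, beside 28.6% and 29% (0 and 5 with the trend removed, beside 27.1% and 26%). PHGDH, PSAT1 and PSPH carry out the successive steps that make serine from a glycolytic intermediate. PHGDH (chromosome 1, 119648411 to 119744218, plus strand) had 89.0, 75.0 and 83.9 CPM in KO, 147, 153 and 176 in OE and 73.3, 83.5 and 87.6 in control. OE lay above the other groups, and KO and control overlapped. It rose by 0.96 ± 0.10 in OE (adjusted p = 1.41e-07), and KO against control gave 0.02 ± 0.10 (0.885), or 0.45 and a call with the trend removed (4.53e-04). PSAT1 (chromosome 9, 78297125 to 78330093, plus strand) had 58.8, 58.0 and 63.5 CPM in KO, 228, 294 and 328 in OE and 87.5, 80.7 and 87.9 in control. Its 3 groups were fully apart, OE highest and KO lowest. PSAT1 was 3.33-fold higher in OE (1.73 ± 0.10, 3.45e-11) and fell by 0.51 ± 0.11 in KO (4.34e-04; -1.03 with the trend removed), and KO was 4.73-fold lower than OE (-2.24 ± 0.11, 1.02e-13).

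PSPH, the last enzyme of serine synthesis, had 32.7, 35.6 and 31.6 CPM in KO, 28.8, 39.1 and 45.0 in OE and 20, 18.6 and 23.4 in control. Both edited lines lay above control and overlapped each other. PSPH rose by 0.69 ± 0.15 in KO (adjusted p = 4.92e-04; 0.40 with the trend removed, 0.0221) and 0.87 ± 0.15 in OE (1.35e-04). KO against OE gave -0.18 (0.285), which passed with the trend removed (-0.43, 0.00777) and without OE replicate 1 (-0.34, 0.0389). MTHFD2, a mitochondrial enzyme that passes on one-carbon units from serine, had 53.9, 60.7 and 63.1 CPM in KO, 79.3, 107 and 116 in OE and 40.1, 38.6 and 39.1 in control. The order was OE, KO, control without overlap. It rose by 0.59 ± 0.12 in KO (2.79e-04; 0.39 with the trend removed, 0.00586) and 1.36 ± 0.12 in OE (2.23e-08), and KO was below OE by 0.77 ± 0.12 (4.69e-06). SHMT2, which makes glycine from serine in mitochondria, averaged 154 ± 4.61 CPM in KO, 230 ± 18.3 in OE and 156 ± 6.32 in control, a rise in OE (0.56 ± 0.08, 1.69e-05).

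The genes of asparagine, proline and cysteine synthesis were led by CBS and PYCR1, both higher in OE. Of the 5, 2 were higher and 0 lower in OE against control, beside 9.28% and 9.34% of all genes. In KO against control 0 were higher and 1 lower, beside 26% and 25.9% (0 and 0 with the trend removed, beside 22.8% and 22.4%). In KO against OE 0 were higher and 2 lower, beside 28.6% and 29%. PYCR1, the last enzyme of proline synthesis, had 14.9, 14.4 and 14.9 CPM in KO, 32.1, 36.4 and 36.3 in OE and 14.2, 13.4 and 14.2 in control. OE stood clear of both other groups, and the KO libraries lay just above the control libraries. The rise in OE was 1.33 ± 0.13 (adjusted p = 1.61e-07), and KO against control gave 0.08 ± 0.14 (0.659). ALDH18A1, the first enzyme of the same pathway, had 102, 113 and 98.6 CPM in KO, 96.7, 102 and 111 in OE and 93.8, 94.8 and 92.7 in control. Every KO and OE library was above every control library, but the differences of 0.16 ± 0.09 and 0.14 ± 0.09 did not pass (0.128 and 0.292).

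CBS, which condenses homocysteine with serine on the way to cysteine, had 3.01, 1.46 and 2.36 CPM in KO, 24.5, 13.1 and 22.1 in OE and 7.19, 3.99 and 3.14 in control. The groups did not overlap, OE highest and KO lowest. CBS was 4.16-fold higher in OE (2.06 ± 0.28, adjusted p = 1.06e-05) and 2.11-fold lower in KO (-1.08 ± 0.36, 0.0146). The KO call was lost with the trend removed (-0.71, 0.107) and without control replicate 1 (-0.66, 0.149) or KO replicate 2 (-0.81, 0.0946). CBS has a near-identical copy in the annotation, so its reads are uncertain; the copy took 81 counts in OE replicate 2 and 0 to 15 in the other libraries. The 2 summed gave 3.01, 1.46 and 2.70 CPM in KO, 25.0, 21.2 and 23.2 in OE and 8.82, 4.42 and 3.36 in control. CTH, the next enzyme, averaged 2.72 ± 0.425 CPM in KO, 4.10 ± 0.466 in OE and 2.79 ± 0.187 in control and did not pass in any comparison, except KO against OE with the trend removed (-1.06, adjusted p = 0.00959).

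ASNS, the asparagine synthetase gene and a much-used ATF4 reporter (chromosome 7, 97851677 to 97872542, minus strand), could hardly be read from these counts. It had 1.32, 0.448 and 0.506 CPM in KO, 1.66, 1.51 and 1.67 in OE and 0.327, 0.631 and 0.897 in control, from 18, 53 and 17 counts over the KO, OE and control libraries. The OE libraries lay above the other 2 groups, which overlapped. OE against control gave 1.37 ± 0.58 (adjusted p = 0.104) and KO against control 0.32 ± 0.65 (0.708), and KO against OE passed only without KO replicate 1 (-1.75, 0.0481). In the annotation used for counting, 2415 of its 4896 exon bases are shared with a second gene on the same strand (ENSG00000284707, 6 counts in all), and the counting tool by default gives reads over 2 genes to neither.

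The amino acid transporters rose together in OE cells, with 6 of 7 higher, 0 lower and SLC38A2 alone not passing. Their log2 fold changes were 0.01 to 2.5, and of all genes 9.28% were higher and 9.34% lower in OE. In KO against control 3 were higher and 2 lower, beside 26% and 25.9% (3 and 1 with the trend removed, beside 22.8% and 22.4%). In KO against OE 1 was higher and 6 lower, beside 28.6% and 29%. SLC7A11, the cystine importer that feeds glutathione synthesis (chromosome 4, 138164097 to 138242349, minus strand), had 19.2, 27.1 and 23.0 CPM in KO, 66.4, 98.1 and 81.2 in OE and 14.9, 14 and 14.6 in control. The order was OE, KO, control without overlap. SLC7A11 was 5.65-fold higher in OE (2.5 ± 0.15, adjusted p = 2.13e-11) and 1.60-fold higher in KO (0.67 ± 0.16, 9.28e-04; 0.66 with the trend removed), and KO was 3.54-fold below OE (-1.82 ± 0.14, 1.79e-10). SLC3A2, the heavy chain that SLC7A11 and SLC7A5 both need at the membrane, had 473, 467 and 428 CPM in KO, 834, 912 and 1015.9 in OE and 483, 510 and 533 in control. OE lay far above, and KO just below, the control libraries. It rose in OE (0.86 ± 0.08, 9.06e-08), and KO against control gave -0.16 ± 0.08 (0.116; 0.0434 in a fit of those 2 groups alone; 0.06 with the trend removed).

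SLC7A5 (LAT1), the leucine transporter of the plasma membrane and the most abundant transcript of the group, had 1258.9, 1251.2 and 1071.2 CPM in KO, 2785.6, 3096.6 and 2737.6 in OE and 1586.7, 1744.6 and 1738.2 in control. The groups did not overlap, OE highest and KO lowest. It rose by 0.77 ± 0.08 in OE (adjusted p = 4.59e-07) and fell by 0.50 ± 0.08 in KO (1.94e-05; -0.23 with the trend removed, 0.00863). SLC1A4, a carrier of alanine, serine and other small neutral amino acids, had 8.54, 8.17 and 8.78 CPM in KO, 27.1, 35.7 and 32.9 in OE and 7.63, 8.41 and 11.2 in control. OE was 3.52-fold above control (1.81 ± 0.17, 5.95e-08), and KO lay within the control range. SLC38A2, a sodium-coupled carrier of neutral amino acids, went the other way, with 651, 730 and 678 CPM in KO, 490, 527 and 479 in OE and 486, 502 and 500 in control. KO was above both other groups, which overlapped. SLC38A2 was higher in KO than in control (0.47 ± 0.08, 1.46e-05; 0.33 with the trend removed) and than in OE (0.46 ± 0.08, 1.40e-05; 0.31), and OE against control gave 0.01 ± 0.08 (0.965).

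SLC1A5, the glutamine carrier ASCT2, averaged 270 ± 25.8 CPM in KO, 377 ± 42.0 in OE and 205 ± 22.4 in control and was higher than control in both (0.40 ± 0.10, adjusted p = 0.00134, in KO, or 0.47 with the trend removed, and 0.88 ± 0.10, 5.79e-07, in OE). SLC7A1, the carrier of arginine and lysine, averaged 128 ± 5.79 CPM in KO, 243 ± 29.4 in OE and 158 ± 6.66 in control. It rose in OE (0.62 ± 0.09, 1.45e-05), and its fall in KO (-0.30 ± 0.09, 0.0063) ended with the trend removed (0.04, 0.727).

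Of the secreted, receptor and tRNA export genes, 3 of 4 rose in OE, beside 9.28% of all genes. In KO against control 1 was higher and 1 lower, beside 26% and 25.9% (2 and 1 with the trend removed, beside 22.8% and 22.4%). All 4 of 4 were lower in KO than in OE, beside 29% (3 of 4 with the trend removed, beside 26%). STC2, a secreted stanniocalcin (chromosome 5, 173314713 to 173329503, minus strand), had 15.9, 15.8 and 19.2 CPM in KO, 50, 81.6 and 79.3 in OE and 13.2, 11.7 and 13.6 in control. The order was OE, KO, control without overlap. STC2 was 5.51-fold higher in OE (2.46 ± 0.16, adjusted p = 1.79e-10). KO against control gave 0.40 ± 0.18 (0.0673), which passed with the trend removed (0.57, 0.0104) and without OE replicate 1 (0.39, 0.0219). ADM2, a secreted peptide of the adrenomedullin family, had 1.92, 3.02 and 1.01 CPM in KO, 4.20, 6.74 and 5.17 in OE and 0.218, 0.631 and 1.35 in control. OE was above both other groups, and KO and control overlapped. ADM2 was 7.28-fold higher in OE (2.86 ± 0.48, 1.45e-04), from 176 counts in OE and 20 in control. The KO call against control (1.48 ± 0.54, 0.0241; 1.74 with the trend removed) did not hold without KO replicate 2 (1.05, 0.173), control replicate 1 (1.06, 0.113) or control replicate 2 (1.39, 0.07).

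XPOT, the exportin that carries tRNA out of the nucleus, had 124, 110 and 111 CPM in KO, 199, 225 and 235 in OE and 142, 134 and 155 in control. The groups were apart, OE highest and KO lowest. It rose by 0.61 ± 0.09 in OE (adjusted p = 1.73e-05) and fell by 0.32 ± 0.09 in KO (0.00427; -0.33 with the trend removed). VLDLR, a lipoprotein receptor, averaged 3.86 ± 1.32 CPM in KO, 6.51 ± 0.288 in OE and 3.89 ± 1.55 in control. It passed in KO against OE (-0.73 ± 0.31, 0.0479) and in neither other comparison, a call lost by DESeq2 (0.0841), with the trend removed (0.11) and without any 1 of 6 libraries (0.052 to 0.156), and OE against control passed without control replicate 3 (1.07, 0.0403).

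**Figure D3:**
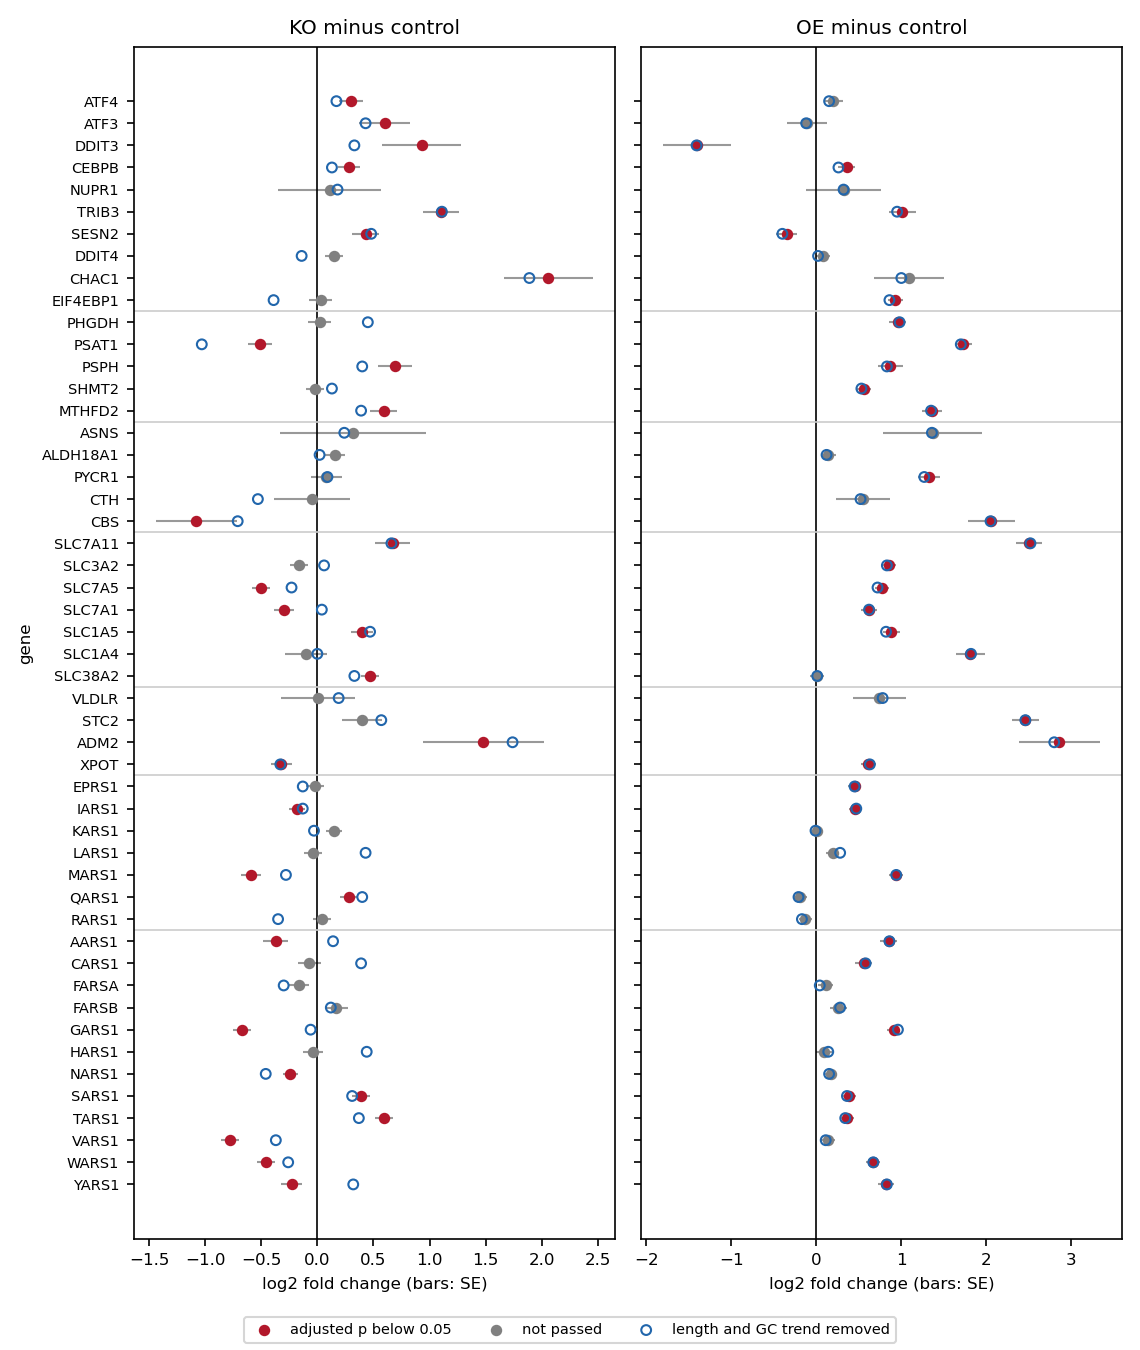
Log2 fold change of each of the 50 genes, KO minus control on the left and OE minus control on the right; filled dots are the fit with bars of ± SE, red where the adjusted p is below 0.05, and open circles are the fit with the length and GC trend removed. The circles sit on the dots in OE and shift in KO, for example down at PSAT1 and up at GARS1, AARS1 and YARS1.

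Of the 19 cytosolic synthetases 10 rose and 0 fell in OE, beside 9.28% and 9.34% of all genes, with log2 fold changes of -0.19 to 0.94. With the trend removed 12 were higher and 1 lower, beside 10.1% and 11.2%. KO against control gave 3 higher and 8 lower, at -0.78 to 0.59, beside 26% and 25.9% of all genes, or 7 and 6 with the trend removed, beside 22.8% and 22.4%. KO against OE gave 2 higher and 12 lower, beside 28.6% and 29% (2 and 10 with the trend removed, beside 27.1% and 26%). Of the 7 in the multi-synthetase complex 3 rose in OE, and of the 12 outside it 7 rose; the difference between the 2 sets was not tested.

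MARS1, the methionine enzyme of the complex (chromosome 12, 57475445 to 57517569, plus strand), had 105, 104 and 111 CPM in KO, 272, 307 and 344 in OE and 159, 162 and 161 in control. The groups stood fully apart, OE highest and KO lowest. MARS1 rose by 0.94 ± 0.08 in OE (adjusted p = 3.78e-08) and fell by 0.59 ± 0.09 in KO (4.35e-06; -0.28 with the trend removed, 0.0101). IARS1, the isoleucine enzyme, had 270, 258 and 282 CPM in KO, 408, 426 and 424 in OE and 301, 311 and 307 in control. It too lay in the order OE, control, KO without overlap. IARS1 rose in OE (0.45 ± 0.07, 7.38e-05), and its small fall in KO (-0.18 ± 0.07, 0.0396) was lost with the trend removed (-0.13, 0.141), with no filter on low counts (0.0649) and without any of control replicates 1, 2 and 3 or KO replicates 1 and 2 (0.059 to 0.152).

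QARS1, the glutamine enzyme (chromosome 3, 49095932 to 49105130, minus strand), had the reverse order, with 298, 262 and 266 CPM in KO, 196, 183 and 217 in OE and 220, 230 and 233 in control. Its groups did not overlap, KO highest and OE lowest. QARS1 was higher in KO than in control (0.28 ± 0.08, adjusted p = 0.00679; 0.40 with the trend removed), a call lost without KO replicate 1 (0.0532), and higher than in OE (0.47 ± 0.08, 3.42e-05). OE against control gave -0.19 ± 0.08 (0.107), which passed with the trend removed (-0.21, 0.0395) and without OE replicate 3 (-0.25, 0.0278). EPRS1, the enzyme for glutamate and proline, rose in OE (0.45 ± 0.08, 1.35e-04), with 509 ± 31.8 CPM in OE and 373 ± 10.1 in control. KARS1, LARS1 and RARS1, for lysine, leucine and arginine, did not pass in either edited line against control, at 0.15, -0.04 and 0.04 in KO and 0.01, 0.19 and -0.13 in OE (LARS1 in OE passed without OE replicate 3, 0.0484). With the trend removed LARS1, whose exons span 20639 bases, was called higher in KO (0.43) and OE (0.28), and RARS1 lower in KO (-0.35). LARS1 was lower in KO than in OE (-0.24 ± 0.08, 0.014), a call that ended with the trend removed (0.15, 0.0734) and without KO replicate 1 (0.0881) or OE replicate 2 (0.0639).

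Outside the complex, GARS1, the glycine enzyme that also serves mitochondria (chromosome 7, 30580533 to 30634033, plus strand), had 115, 106 and 113 CPM in KO, 300, 348 and 348 in OE and 185, 172 and 175 in control. The groups were apart, OE highest and KO lowest. It rose by 0.91 ± 0.08 in OE (adjusted p = 3.17e-08). KO was 2.99-fold below OE (-1.58 ± 0.08, 4.11e-13), a difference that shrank to -1.02 with the trend removed (1.86e-10). Its fall in KO against control (-0.67 ± 0.08, 4.23e-07) was not seen with the trend removed (-0.06, 0.621), and its exons span 17366 bases. VARS1, the valine enzyme, had 198, 191 and 188 CPM in KO, 345, 365 and 380 in OE and 318, 318 and 352 in control. KO was far below both other groups, and OE overlapped control. VARS1 fell by 0.78 ± 0.08 in KO (1.74e-08; -0.37 with the trend removed, 1.42e-04), and OE gave 0.14 ± 0.08 (0.208).

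TARS1, the threonine enzyme (chromosome 5, 33440696 to 33468091, plus strand), was highest in KO, with 344, 330 and 331 CPM in KO, 259, 311 and 291 in OE and 211, 238 and 221 in control. The groups did not overlap. TARS1 rose by 0.59 ± 0.08 in KO (adjusted p = 2.22e-06; 0.37 with the trend removed, 2.59e-04) and 0.36 ± 0.08 in OE (0.00224; 0.34), and KO exceeded OE by 0.22 ± 0.08 (0.0221), a call lost with the trend removed (0.02, 0.824), with no filter on low counts (0.0845) and without KO replicate 1 (0.0689) or OE replicate 1 (0.138). YARS1, the tyrosine enzyme, had 113, 102 and 107 CPM in KO, 189, 233 and 239 in OE and 135, 119 and 122 in control. OE was highest and KO lowest, without overlap. It rose by 0.82 ± 0.09 in OE (7.79e-07). Its call in KO had opposite signs, -0.23 ± 0.09 (0.0467) before and 0.32 (0.01) after removal of the trend, and the first was lost by DESeq2 (0.0592) and without KO replicate 2 (0.159), KO replicate 3 (0.0867), control replicate 1 (0.19) or control replicate 3 (0.0707).

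AARS1, WARS1, CARS1 and SARS1, for alanine, tryptophan, cysteine and serine, rose in OE as well, by 0.85 ± 0.10, 0.67 ± 0.08, 0.56 ± 0.10 and 0.39 ± 0.08. In KO against control SARS1 was higher (0.39 ± 0.08, adjusted p = 3.43e-04), WARS1 was lower (-0.46 ± 0.08, 5.12e-05) and so was NARS1, for asparagine (-0.24 ± 0.07, 0.00965), each of which held with the trend removed (0.31, -0.26 and -0.46). AARS1 was called lower in KO (-0.37 ± 0.11, 0.00486), but had 0.14 with the trend removed (0.209). CARS1 had -0.07 in KO, HARS1, for histidine, -0.04, and FARSA, the alpha subunit of the phenylalanine enzyme, -0.16, none of which passed; with the trend removed CARS1 (0.39) and HARS1 (0.44) were called higher and FARSA (-0.30) lower. FARSB, its beta subunit, did not pass in KO (0.17) or OE (0.26, 0.0665), though the OE value passed with the trend removed (0.0278), with no filter on low counts (0.0498), in a fit of 2 groups (0.0386) and without KO replicate 3 (0.0406), and the KO value without KO replicate 1 (0.0486). FARSA was lower in KO than in OE (-0.28), but not without KO replicate 2 (0.067). HARS1 shares 1090 exon bases with WDR55 and MTHFD2 shares 1324 with SLC4A5, on opposite strands.

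**Figure D4:**
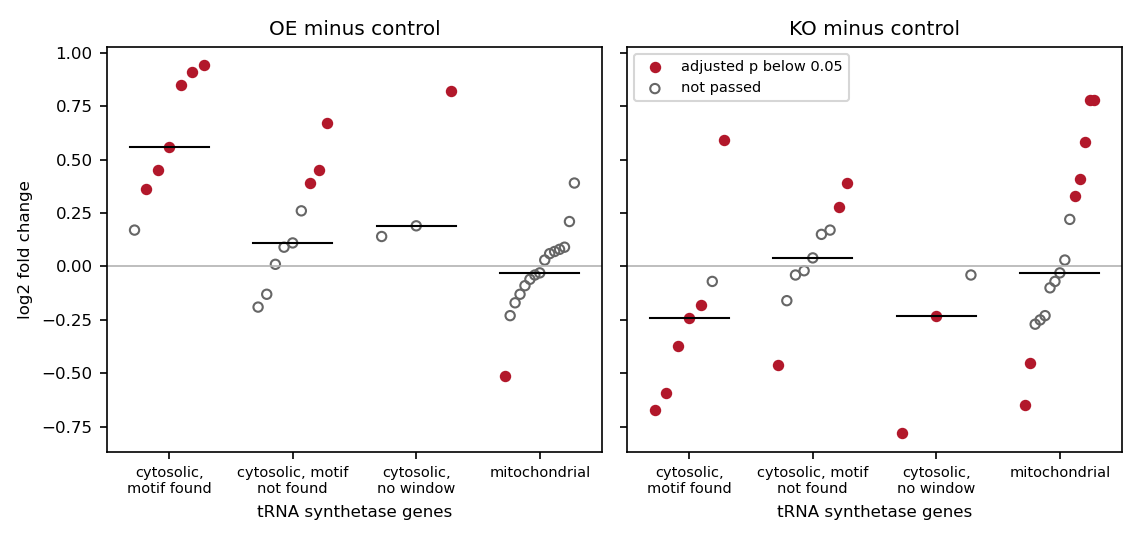
Log2 fold change of tRNA synthetase genes, OE minus control on the left and KO minus control on the right; cytosolic genes are split by a match to the composite element in the promoter window, and mitochondrial genes are shown beside them. Each dot is a gene, red where the adjusted p is below 0.05, and lines are medians. In OE the medians are 0.56 with a match, 0.11 without one and -0.03 for mitochondrial genes.

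The cytosolic synthetases whose promoter window held the composite element, among them GARS1, MARS1, AARS1 and TARS1 as printed above, had a median log2 fold change of 0.56 in OE against control, with 6 of 7 higher. NARS1 did not pass (0.17 ± 0.07, adjusted p = 0.116), except by DESeq2 (0.0495). The 9 with a window but no match had a median of 0.11, with 3 of 9 higher, and the difference was not tested. Of all genes tested, 9.28% were called higher in OE. For KO against control the medians were -0.24 with and 0.04 without a match. Among ATF4 targets the OE medians were 0.88 with and 0.68 without a match, and 4 of 7 and 10 of 18 were called higher. Among all tested genes with a window the medians were 0.00 and -0.01.

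Of the mitochondrial synthetases 15 were tested, and SARS2 and VARS2 had too few counts. Like ASNS, these share exon bases with a second gene on the same strand (1492 of 3098 at SARS2 and 4073 of 6467 at VARS2). In OE 0 of the 15 were higher and WARS2 was lower (-0.51 ± 0.16, adjusted p = 0.0235), with a range of -0.51 to 0.39. Of all genes, 9.28% were higher and 9.34% lower in OE. The WARS2 call was lost without control replicate 1 or 2 or OE replicate 2 or 3 (0.0638 to 0.123). NARS2 had the highest value (0.39 ± 0.15, 0.0672). In KO 5 were higher, beside 26% of all genes, and 2 lower, beside 25.9%. The counts were also 5 and 2 with the trend removed, beside 22.8% and 22.4%, with all 5 of the higher but 1 of the lower genes shared. Before removal the smallest p-values of these belonged to IARS2 (0.58 ± 0.07, 6.29e-07), RARS2 (0.78 ± 0.12, 5.35e-06) and WARS2 (0.78 ± 0.15, 1.42e-04), which had 0.35, 0.33 and 0.47 after it. CARS2, named here after its values were seen, had 0.33 ± 0.09 (0.0037) before and 0.88 after (1.04e-08). AARS2, also named after its values were seen, was called lower before (-0.65 ± 0.15, 6.97e-04) and after (-0.37, 0.0256). LARS2 was called lower only before (-0.45 ± 0.09, 2.91e-04) and HARS2 only after (-0.40, 0.00522). The median of the 15 was -0.03 in OE and in KO against control (0.01 in KO with the trend removed). The scaffold proteins of the multi-synthetase complex AIMP1 (0.29 ± 0.10, adjusted p = 0.0216; 0.25 with the trend removed) and AIMP2 (0.50 ± 0.17, 0.0157; 0.03 with the trend removed) were higher in KO than in control, and TARS3, a second threonine enzyme, was lower (-1.14 ± 0.21, 1.05e-04; -1.29 with the trend removed). None of these 3 passed in OE. AIMP1 was not called without KO replicate 3 or control replicates 1 or 3 (0.0616 to 0.135), nor AIMP2 without KO replicate 2 (0.0785) or control replicate 3 (0.0936).

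Of the kinases, subunits and phosphatase regulators around eIF2, 2 of 15 were higher and 0 lower in OE, beside 9.28% and 9.34% of all genes. The 2 were EIF2S2, a subunit of eIF2 (0.31 ± 0.08, adjusted p = 0.00698), and EIF2B3, a subunit of its exchange factor (0.53 ± 0.14, 0.00843, or 0.0589 without control replicate 2). In KO 5 were higher and 6 lower, beside 26% and 25.9% of all genes (3 and 4 with the trend removed, beside 22.8% and 22.4%), so that these shares lay near the background. GCN1, which activates the amino acid sensing kinase GCN2, averaged 184 ± 4.68 CPM in KO, 354 ± 35.6 in OE and 352 ± 18.7 in control, a fall of 0.93 ± 0.08 in KO (3.15e-09; -0.38 with the trend removed). EIF2AK2, the kinase that senses double-stranded RNA, fell in KO (-0.82 ± 0.10, 3.22e-07; -0.66 with the trend removed), and EIF2S3, another eIF2 subunit, rose (0.62 ± 0.07, 2.38e-07; 0.36 with the trend removed). The rise of EIF2S2 in KO (0.29 ± 0.08, 0.00336) did not hold with the trend removed (-0.15, 0.0628).

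Of a further list of 18 known ATF4 targets, SLC43A1, FGF21 and CLGN were too low to test. Of the other 15, 9 were higher and 1 lower in OE, beside 9.28% and 9.34% of all genes. In KO against control 4 were higher and 6 lower, beside 26% and 25.9% (4 and 5 with the trend removed, beside 22.8% and 22.4%). The medians were 0.56 in OE and -0.12 in KO. PCK2, a mitochondrial enzyme of phosphoenolpyruvate synthesis, averaged 40.9 ± 3.13 CPM in KO, 141 ± 15.9 in OE and 43.6 ± 3.21 in control. It rose by 1.69 ± 0.10 in OE (adjusted p = 3.45e-11) and had -0.09 in KO (0.522). MTHFD1L, which releases formate from mitochondrial folate, averaged 21.8 ± 1.62 CPM in KO, 78.0 ± 12.2 in OE and 45.7 ± 2.47 in control and fell in KO (-1.06 ± 0.13, 2.36e-07; -1.0 with the trend removed) while it rose in OE (0.78 ± 0.11, 2.57e-05). LONP1, a mitochondrial protease, and GPT2, an alanine transaminase, showed the same signs, at -0.85 ± 0.09 and -0.48 ± 0.13 in KO and 0.52 ± 0.09 and 0.92 ± 0.12 in OE, though with the trend removed LONP1 in KO had -0.50 and GPT2 in KO did not pass (-0.19, 0.19). GDF15, a secreted stress hormone, averaged 83.8 ± 5.10 CPM in KO, 24.5 ± 2.21 in OE and 25.8 ± 5 in control. It rose in KO (1.69 ± 0.13, 2.26e-10; 1.53 with the trend removed), and OE gave -0.08 (0.737).

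Chaperones and other genes listed as responding to endoplasmic reticulum stress through ATF6 and XBP1 gave 3 of 9 higher and 0 lower in OE. Of all genes, 9.28% were higher and 9.34% lower in OE. In KO 3 were higher and 1 lower, beside 26% and 25.9% (1 and 4 with the trend removed, beside 22.8% and 22.4%). HSPA5 (BiP), the main chaperone, averaged 515 ± 24.8 CPM in KO, 628 ± 42.4 in OE and 527 ± 15.0 in control, a rise of 0.25 ± 0.08 in OE (adjusted p = 0.022), lost without OE replicate 2 or any 1 control library (0.054 to 0.0937). KO against control gave -0.03 (0.743), which was called lower with the trend removed (-0.24, 0.00572). XBP1 was higher in OE (0.54 ± 0.10, 2.88e-04) and in KO (0.45 ± 0.10, 4.44e-04), the second only before removal of the trend (0.00, 0.986). HYOU1, another chaperone, fell in KO (-0.61 ± 0.09, 2.44e-06; -0.21 with the trend removed, 0.024) and rose in OE (0.24 ± 0.08, 0.0437), the second lost without KO replicate 2, OE replicate 1 or 2 or any 1 control library (0.0515 to 0.226). The co-chaperone DNAJB9 rose in KO (0.79 ± 0.17, 3.47e-04) but not with the trend removed (0.28, 0.146). HERPUD1, named here after its values were seen, was called higher in KO before (0.55 ± 0.14, 0.00192) and after removal of the trend (0.51, 0.00254). OE against control gave 0.01 for HERPUD1 (0.976).

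Per kilobase of exon, control levels of the 50 genes ran from 355 CPM per kb at SLC7A5, 154 at DDIT4 and 98.7 at SLC3A2 down to 0.171 at ADM2 and 0.126 at ASNS. Of the 49 pairs of neighbours in that order, 17 had control libraries that did not overlap and the rest could not be told apart by 3 libraries. In OE, PSAT1 reached 129 CPM per kb beside 38.7 in control, and SLC7A11 reached 8.49 beside 1.5. Within the OE group, replicate 1 had the lowest level of the 3 libraries at 37 of the 50 genes (74%) and at 25 of the 29 called higher in OE (86.2%), beside 659 of 1242 (53.1%) of all genes called higher in OE. Without OE replicate 1, 31 of the 50 were called higher in OE.

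Genes nearby on the chromosome also differed in KO around a few members, which were picked after their values were seen. Over the tested genes within 5 megabases on either side, the median log2 fold change of KO over control was 0.49 at TARS1 (24 genes, chromosome 5), 0.62 at PSPH (11 genes, chromosome 7), 0.40 at ATF3 (37 genes, chromosome 1) and 0.53 at EPRS1 (29 genes, chromosome 1). With the trend removed these were 0.40, 0.33, 0.33 and 0.35. TARS1, PSPH and ATF3 were themselves at 0.59, 0.69 and 0.60, and EPRS1 at -0.02. In OE the 4 neighbourhoods lay at -0.04, 0.04, 0.17 and 0.05. Other members had lowered neighbourhoods in KO, such as KARS1 at -0.35 and NUPR1 at -0.32 (both chromosome 16), or -0.19 and -0.09 with the trend removed. IARS2, which lies near EPRS1 and was at 0.58 in KO, had neighbours at 0.38, or 0.32 with the trend removed. Copy number was not measured, and its part was not tested.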

How the data were processed

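Per the labels' protocols, poly-A RNA was fragmented, primed at random and read as pairs of 150 bases. The deposited files hold whole-number counts of reads per gene, made by the authors with featureCounts 1.5.2 on Ensembl release 101 (GRCh38), per the file headers; the submitters' processing notes name HISAT2 1.03, FastQC, DESeq2 and featureCounts 0.1.0. The headers set no option for pairs, strand or overlapping genes. Libraries were grouped by genotype and title. The submitters call them biological replicates, and p-values set the differences between groups against the spread between these libraries. The number of edited clones is not given, so p-values may not cover differences between clones.

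Counts were fitted with edgeR 4.0.16 (R 4.3.3): filterByExpr at a minimum count of 10, TMM scaling, 1 quasi-likelihood fit of all 9 libraries by group, two-sided tests. CPM are TMM-scaled. Replicates differed by more than sampling noise (chi-square per degree of freedom 2.74 to 11.7). Alternatives were DESeq2 1.42.0, its size factors, no filter, fits of 2 groups, a replicate block, each library left out, and a loess surface (span 0.3) per library of log2 CPM over exon length and GC content as offset (GENCODE 29; 13341 of 13390 genes, 99.6%). The scripts were tested on simulated counts. Values of every library are given for ATF4, ATF3, DDIT3, CEBPB, TRIB3, CHAC1, SESN2, ASNS, PHGDH, PSAT1, PSPH, MTHFD2, SLC7A11, SLC3A2 and SLC7A5 and, of each role, for the 3 genes with the smallest p in KO and the 2 in OE; of each other list the same 3 and 2 are named, except 1 result that is not reported here. The members, lists and the trend correction were chosen with earlier results of these data known. Reads are not independent molecules, so counts limit precision beyond what counting error covers. Proteins are not analysed here.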

Additional observations from a re-analysis of the deposited data

How the results depend on the processing

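Over 150 log2 fold changes (50 genes, 3 comparisons), direction and side of the threshold held for 150 with DESeq2's size factors, 145 with DESeq2's Wald test, 145 with no filter and 146 in fits of 2 groups. In the fits of 2 groups 2 were newly called and 1 was lost, and not every value was available, because low counts were filtered anew. Removing the length and GC trend kept 122, with 14 newly called, 10 lost and 4 reversed: SLC7A1 to 0.04, AARS1 to 0.14 and YARS1 to 0.32 in KO against control, and LARS1 to 0.15 in KO against OE; EIF2S2 in KO against control became -0.15. The cause was not tested. The median of the synthetases in KO against control became -0.03. Genes called lower in OE against control were 1 with DESeq2's Wald test, no filter and the fit of 2 groups, in place of 2.

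Same-numbered libraries showed no clear shared deviation (correlations -0.0772 to 0.066). With 3 libraries per group these values cannot exclude a small shared effect, and the labels do not say whether the numbers mark pairs. The replicate block kept 145 of 150, with 2 newly called (STC2 in KO against control, 0.0452; FARSB in OE against control, 0.0425), 3 lost (SESN2 in OE against control, 0.0514; YARS1 in KO against control, 0.0535; VLDLR in KO against OE, 0.0627) and 1 gene called lower in OE. With the block and the trend removed the reversed values were 0.03 (SLC7A1), 0.14 (AARS1), 0.32 (YARS1), 0.16 (LARS1) and -0.15 (EIF2S2), and the synthetase median was -0.03.

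With each library left out in turn, 12 to 17 were higher and 10 to 13 lower in KO against control, 29 to 31 and 0 to 2 in OE against control, and 5 to 7 and 27 to 29 in KO against OE. Medians were 0.11 to 0.29 (ATF4 targets) and -0.13 to -0.04 (synthetases) in KO against control, 0.79 to 0.92 and 0.31 to 0.42 in OE against control, and -0.76 to -0.67 and -0.44 to -0.39 in KO against OE. Depth limits genes with few counts per library, among them ASNS, ADM2, DDIT3, NUPR1, CBS, CHAC1, CTH and VLDLR.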
